A study of Homo sapiens with 6 samples.

Results

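The integrated stress response is a signalling route that lowers general protein synthesis and raises a set of genes for amino acid supply and stress repair. The 33 genes described here comprise its transcription factors, its feedback and stress effectors, amino acid and one-carbon enzymes, and amino acid transporters. They were taken from a written list of gene symbols, and all 33 were found among the 19775 genes of the array. Each gene was read from its brightest probe set, by the mean over all 6 arrays, among the probe sets whose annotation names that gene alone.

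The samples were ARPE-19 cells, an established human line from retinal pigment epithelium, grown in serum-containing DMEM/Ham's F-12 medium. In 3 samples the cells received SRPIN803 at 10 µM for 4 h, and in 3 they received the solvent control, 0.1% DMSO, for 4 h. The compound blocks the splicing factor kinase SRPK1 and also CK2, a widely acting protein kinase. Total RNA was measured on Affymetrix 3' arrays, so the question is which mRNAs of the route change within hours of dosing. All samples are 1 cell line, and the labels do not say whether replicates were separate cultures, so every p-value reflects only how these samples vary, possibly for technical reasons.

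In this route a few kinases, each sensing a different stress, phosphorylate the initiation factor eIF2. Translation then falls in general, while that of ATF4 mRNA rises because of short reading frames in its leader. ATF4 protein pairs with C/EBP factors on a composite DNA element, the C/EBP-ATF response element, and raises genes such as ASNS, CHAC1 and TRIB3. Arrays measure mRNA, so neither eIF2 phosphorylation nor ATF4 protein was measured.

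The median log2 value of an array was 5.25 to 5.27, and no 2 arrays held identical values. Correlations across probe sets ran from 0.9957 to 0.9977 within groups and from 0.9940 to 0.9961 between groups. The 5' to 3' signal difference of the actin control, a sign of RNA quality, was -1.76 ± 0.36 in SRPIN803 and -1.77 ± 0.31 in DMSO (log2, SD, n = 3 each). Of 12 pigment epithelium markers, the structural genes KRT8, KRT18 and EZR and the factors MITF and OTX2 averaged between 10.05 and 13.78 in either group, BEST1, SERPINF1, TTR, RLBP1 and PMEL between 5.29 and 6.81, and TYRP1 and RPE65 between 2.24 and 3.38. MITF alone of the 12 was called (8.33%, against 5.84% of all genes). It was higher, at a log2 change of 0.35 ± 0.07 (limma's adjusted p = 0.0312), and lost the call with each array left out in turn. OTX2 was at 0.17 ± 0.06, higher without overlap and not called. Of 8 endothelial, leukocyte and photoreceptor markers 0 were called with limma and 1, CRX, had an unadjusted p under 0.05. Over all genes these shares were 5.84% and 19.5%. Their group means ran from 2.66 (CDH5) to 6.37 (PECAM1) in SRPIN803 and from 2.64 (CDH5) to 6.35 (PECAM1) in DMSO, and PECAM1 and CD3E lay above the array medians in both groups. The part of these markers in the results below was not tested.

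After SRPIN803, 2 amino acid transporter genes rose, SLC43A2 by 1.98-fold and SLC38A2 by 1.80-fold, and 2 genes fell, the feedback gene TRIB3 and the transporter gene SLC7A5. ATF4 itself and its well-known targets ASNS and CHAC1 did not pass the test, while TRIB3, which fell, is also such a target. In cells measured in bulk, fewer cells with a transcript and less of it per cell cannot be told apart. Of the 33 genes 4 were called at an adjusted p under 0.05 (12.1%), with limma over all 19775 genes and Benjamini-Hochberg adjustment. Over all genes, 5.84% were called in either direction, 3.46% higher and 2.37% lower after SRPIN803. The 33 genes were chosen with earlier results of these data known, so their shares are a description. The median log2 change of the 33 genes was 0.0013, against 0.019 over all genes, and 17 of them lay above 0 and 16 below. An unadjusted p under 0.05 was found for 10 of the 33, against 19.5% of all genes. In 15 of the 33 the groups did not overlap, 7 higher and 8 lower, against 25.6% of all genes without overlap, 15.2% higher and 10.4% lower. The values of 18 of the 33 lay within 0.1 of 0 on the log2 scale, against 55.2% of all genes.

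**Figure D1:**
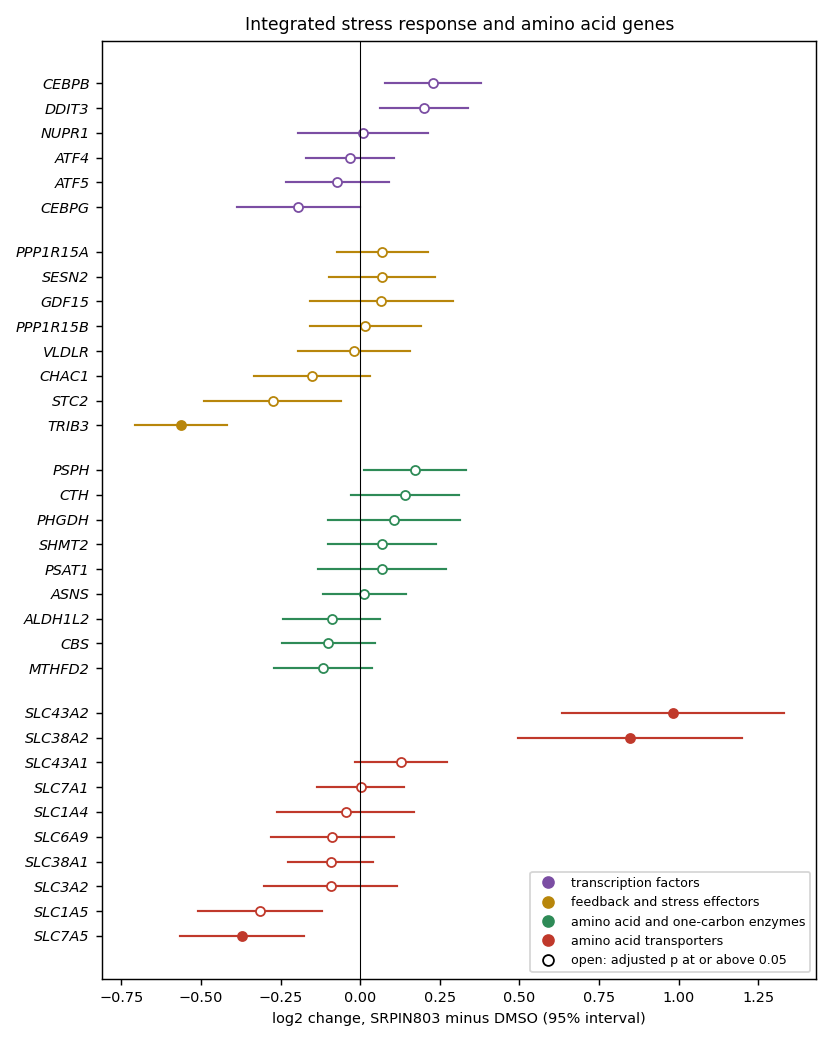
Log2 change (SRPIN803 minus DMSO, x axis) with its 95% interval from limma for each of the 33 genes (y axis), in 4 groups by role. Filled points mark the 4 genes called at an adjusted p under 0.05, SLC43A2 and SLC38A2 on the right and TRIB3 and SLC7A5 on the left, and the remaining 29 are open.

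The DNA element of the route was looked for in promoter windows from RefSeq (GRCh38.p14), which run from 250 bases before to 50 after each annotated start. The core searched was TGATGNAA, on both strands. At least 1 window of 9 of the 29 genes with windows held it (31.0%), against 3.61% of the 15384 array genes with windows. The list was drawn up from genes known as targets of the route, so this share is a description. The cyclic AMP response element TGACGTCA, searched in the same way, was found in 1 of the 29 genes, PPP1R15A, against 3.10% of array genes. The stretches below lie before every annotated start of their gene and are shown because they carry the element in genes whose mRNA was read here, with the element in capitals.
ASNS, chr7:97872439-97872506, minus strand: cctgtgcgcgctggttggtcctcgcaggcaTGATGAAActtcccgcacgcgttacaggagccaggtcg
CHAC1, chr15:40953232-40953299, plus strand: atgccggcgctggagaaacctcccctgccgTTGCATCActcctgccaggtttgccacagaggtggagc
PPP1R15B, chr1:204412007-204412067, minus strand: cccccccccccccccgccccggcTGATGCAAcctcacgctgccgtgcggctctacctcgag
PPP1R15A, chr19:48872333-48872400, plus strand: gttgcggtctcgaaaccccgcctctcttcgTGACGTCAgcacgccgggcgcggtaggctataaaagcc

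Counted from the start site, the element lies at -68 in ASNS, at -209 in CHAC1 and at -227 in PPP1R15B, and the cyclic AMP element at -58 in PPP1R15A. CEBPG, SLC1A4, SLC1A5, SLC38A1, SLC3A2 and SLC7A1 also held the core in a window, at places that do not lie before every annotated start of the gene. None of the windows of the 4 called genes (1 of SLC38A2, 1 of SLC7A5, 3 of TRIB3 and 3 of SLC43A2) held these letters on either strand. None of the 9 genes with the core was called in the gene test, against 5.84% of all genes. At that share few or no calls would be found among 9 genes, so no conclusion is drawn. Sites outside the windows, which run from 250 bases before to 50 after each annotated start, were not searched. Whether the 4 called genes hold the core elsewhere was therefore not tested.

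Among the 6 transcription factor genes 0 were called with limma, against 5.84% of all genes. An unadjusted p under 0.05 was found for 3 of the 6, CEBPB, DDIT3 and CEBPG, against 19.5% of all genes. The groups did not overlap in these 3, against 25.6% of all genes without overlap. ATF4, the central activator of the route, was at 12.75, 12.78 and 12.69 in SRPIN803 replicates 1, 2 and 3, against 12.74, 12.83 and 12.75 in DMSO replicates 1, 2 and 3 (log2 level, here and below). Its groups overlapped, and its log2 change was -0.031 ± 0.059 (limma's standard error, here and below), with a 95% interval of -0.17 to 0.11. ATF5, a related activator that is also controlled in translation, was at 7.67, 7.75 and 7.62 in SRPIN803, against 7.83, 7.77 and 7.65 in DMSO. These groups overlapped as well, at a log2 change of -0.072 ± 0.070.

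DDIT3, which encodes the pro-apoptotic factor CHOP, was at 8.68, 8.78 and 8.73 in SRPIN803, against 8.47, 8.56 and 8.55 in DMSO. Every SRPIN803 array lay above every DMSO array, with a log2 change of 0.20 ± 0.060 that was not called (adjusted p = 0.103 with limma). CEBPB, a bZIP factor that can pair with ATF4, was at 11.58, 11.72 and 11.56 in SRPIN803, against 11.40, 11.42 and 11.35 in DMSO. The groups were apart by 0.14, and the log2 change of 0.23 ± 0.065 was not called (adjusted p = 0.0903 with limma). Both DDIT3 and CEBPB passed when the test was limited to genes at or above the median level, at adjusted p = 0.0407 and 0.0370 with limma.

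CEBPG, another pairing partner of ATF4, was at 8.49, 8.55 and 8.28 in SRPIN803, against 8.69, 8.57 and 8.65 in DMSO. The groups lay 0.019 apart, with a log2 change of -0.19 ± 0.083 (adjusted p = 0.255 with limma). Its other, dimmer probe set read 7.86, 7.73 and 7.75 in SRPIN803, against 8.21, 8.17 and 8.14 in DMSO, and this one was lower at a log2 change of -0.39 ± 0.070 (limma's adjusted p = 0.0342 over all 54613 probe sets). Leaving out any 1 array ended this call, at adjusted p of 0.0556 to 0.128 with limma. NUPR1, a stress-induced chromatin protein gene, was at 0.0084 ± 0.087.

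**Figure D2:**
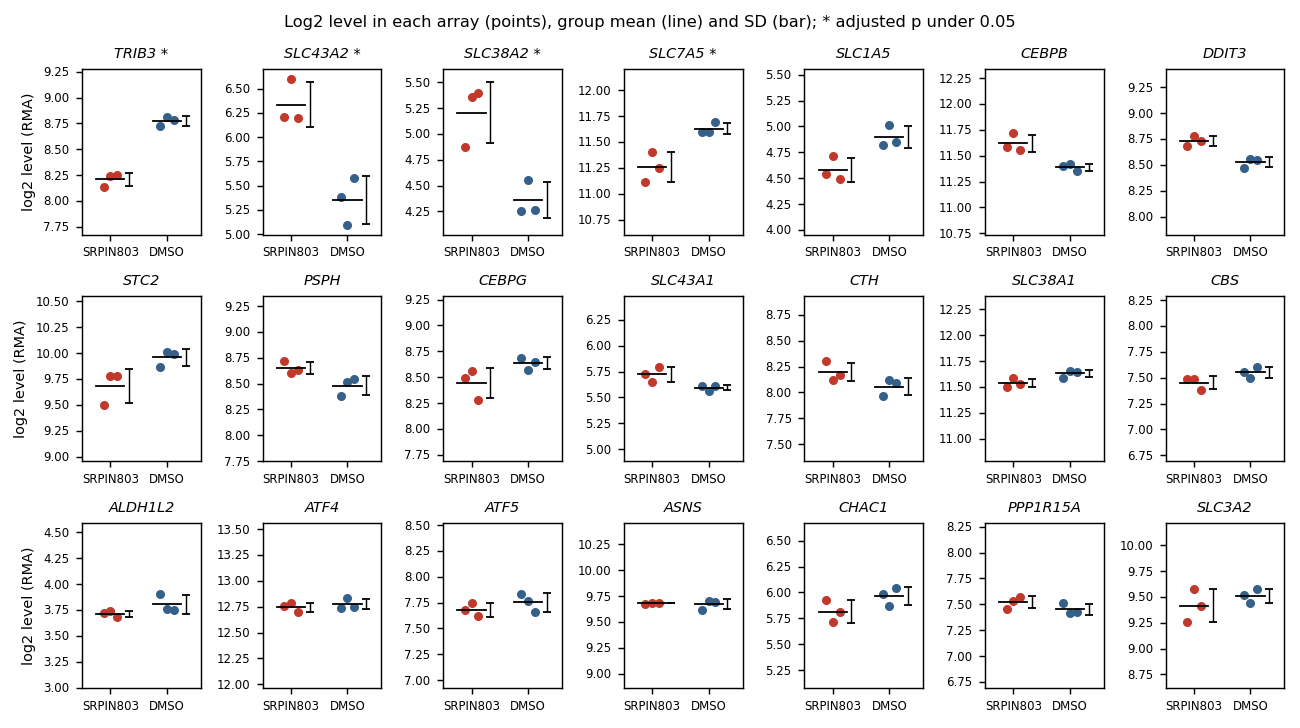
Log2 level of 21 genes in each array (points), with the group mean (line) and SD (bar), SRPIN803 on the left and DMSO on the right of each panel. Asterisks mark the 4 called genes. The first 15 panels hold the genes whose groups did not overlap, and in the last 6, from ATF4 to SLC3A2, the groups overlapped.

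Among the 8 feedback and stress effector genes TRIB3 fell and the other 7 did not pass the test (12.5% called, against 5.84% of all genes). TRIB3 encodes a pseudokinase that is raised by ATF4 and binds and restrains it. Its levels were 8.13, 8.24 and 8.25 in SRPIN803, against 8.72, 8.81 and 8.78 in DMSO. The groups lay 0.47 apart, and TRIB3 fell 1.48-fold (95% interval 1.34 to 1.63), a log2 change of -0.56 ± 0.062 with limma's adjusted p = 0.00425. The call held with any 1 array left out, at log2 changes of -0.59 to -0.53.

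The other probe set of TRIB3 read 5.34, 5.54 and 5.32 in SRPIN803, against 5.57, 5.53 and 5.55 in DMSO. Here the groups overlapped, at a log2 change of -0.16 ± 0.080. The difference between the probe sets was itself tested with limma's diffSplice, and TRIB3 was the 1 of 14 testable genes called (adjusted p = 0.0368), against 3.36% of 5531 genes over the array. It kept that call without SRPIN803 replicate 1 and lost it without SRPIN803 replicate 2 or 3 or any 1 DMSO replicate.

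STC2, which encodes a secreted glycoprotein of stressed cells, was at 9.49, 9.78 and 9.78 in SRPIN803, against 9.87, 10.01 and 10.00 in DMSO. All SRPIN803 arrays were lower, replicate 1 most of all, with a log2 change of -0.27 ± 0.092 that was not called (adjusted p = 0.148 with limma). Its other probe set was at -0.37 ± 0.10, also without overlap and not called (adjusted p = 0.106 with limma). CHAC1, an enzyme that degrades glutathione and a sensitive ATF4 target, was at 5.93, 5.71 and 5.81 in SRPIN803, against 5.99, 5.87 and 6.04 in DMSO. Its groups overlapped through SRPIN803 replicate 1 and DMSO replicate 2, at a log2 change of -0.15 ± 0.078.

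PPP1R15A encodes GADD34, the inducible phosphatase subunit that reverses eIF2 phosphorylation. It was at 7.46, 7.54 and 7.57 in SRPIN803, against 7.51, 7.41 and 7.43 in DMSO. These groups overlapped, at a log2 change of 0.070 ± 0.062 with a 95% interval of -0.074 to 0.21. PPP1R15B, the constitutive counterpart, was at 0.017 ± 0.075. The log2 changes of SESN2, a leucine sensor that restrains mTORC1, GDF15, a secreted stress hormone, and VLDLR, a lipoprotein receptor, were 0.068 ± 0.071, 0.067 ± 0.10 and -0.019 ± 0.076.

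Among the 9 amino acid and one-carbon enzyme genes 0 were called with limma, against 5.84% of all genes. An unadjusted p under 0.05 was found for 1 of the 9, PSPH, against 19.5% of all genes. The log2 changes of the 9 genes ran from -0.12 for MTHFD2 to 0.17 for PSPH, with a median of 0.068. ASNS, asparagine synthetase, was at 9.68, 9.68 and 9.69 in SRPIN803, against 9.62, 9.70 and 9.69 in DMSO. The DMSO arrays spanned the SRPIN803 ones, and the log2 change of 0.013 ± 0.056 had a 95% interval of -0.12 to 0.14.

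The serine route from glycolysis is encoded by PHGDH, PSAT1 and PSPH. PSPH, the last enzyme of the 3, was at 8.72, 8.60 and 8.64 in SRPIN803, against 8.38, 8.52 and 8.55 in DMSO. The groups lay 0.057 apart, and the log2 change of 0.17 ± 0.069 was not called (adjusted p = 0.226 with limma). The other probe sets of PSPH were at 0.21 ± 0.087 and -0.011 ± 0.091. PHGDH was at 0.11 ± 0.089 and PSAT1 at 0.068 ± 0.086, both with overlapping groups.

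Of the mitochondrial one-carbon enzymes, SHMT2 was at 0.068 ± 0.073 and MTHFD2 at -0.12 ± 0.067, with overlap in each. ALDH1L2 was dim, at 3.73, 3.74 and 3.68 in SRPIN803, against 3.91, 3.76 and 3.75 in DMSO. These groups were 0.0092 apart, at a log2 change of -0.090 ± 0.065. ALDH1L2 lay below the array's median level of 5.26.

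Cysteine is made from homocysteine by CBS and CTH. CTH was at 8.30, 8.12 and 8.17 in SRPIN803, against 7.97, 8.12 and 8.09 in DMSO. The lowest SRPIN803 array and the highest DMSO array differed by 0.0062, and the log2 change of 0.14 ± 0.073 was not called (adjusted p = 0.350 with limma), with 0.13 ± 0.079 for its other probe set. CBS was at 7.49, 7.49 and 7.38 in SRPIN803, against 7.56, 7.50 and 7.60 in DMSO. These groups were 0.0073 apart, at a log2 change of -0.10 ± 0.062, and its value is uncertain, since CBS has a near-identical copy, CBSL, that its probes may also bind.

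The 10 amino acid transporter genes held 3 of the 4 calls, 2 higher and 1 lower. That is 30% called, against 5.84% of all genes, 3.46% higher and 2.37% lower. SLC43A2 encodes LAT4, a facilitative carrier of branched-chain and other large neutral amino acids. It was at 6.21, 6.60 and 6.20 in SRPIN803, against 5.38, 5.09 and 5.58 in DMSO. The groups lay 0.61 apart, and SLC43A2 rose 1.98-fold (95% interval 1.55 to 2.52), a log2 change of 0.98 ± 0.15 with limma's adjusted p = 0.0123. In the test over all genes it stayed called with any 1 array left out (limma's adjusted p of 0.0278 to 0.0467).

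The other probe set of SLC43A2 read 4.83, 4.73 and 5.08 in SRPIN803, against 4.16, 4.40 and 4.22 in DMSO. It was also higher without overlap, at a log2 change of 0.62 ± 0.11 (limma's adjusted p = 0.0322 over all probe sets). Over all probe sets that call was kept in 1 of the 6 fits with an array left out, with limma's adjusted p reaching 0.132. The brightest probe set of SLC43A2, tested in the same way, also kept its call in 1 of the 6 fits, with limma's adjusted p reaching 0.0876. The paralogue of SLC43A2, SLC43A1, which encodes the like carrier LAT3, was at 5.73, 5.65 and 5.80 in SRPIN803, against 5.61, 5.57 and 5.61 in DMSO. The groups of SLC43A1 lay 0.035 apart, at a log2 change of 0.13 ± 0.062 that was not called (adjusted p = 0.314 with limma).

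SLC38A2 encodes SNAT2, the sodium-coupled carrier of small neutral amino acids that cells raise when amino acids run short. It was at 4.87, 5.35 and 5.39 in SRPIN803, against 4.25, 4.56 and 4.26 in DMSO. The groups lay 0.31 apart, and SLC38A2 rose 1.80-fold (95% interval 1.41 to 2.30), a log2 change of 0.85 ± 0.15 with limma's adjusted p = 0.0220. The call was lost without SRPIN803 replicate 2 (adjusted p = 0.0642 with limma) or 3 (0.0665), or without DMSO replicate 1 (0.0741) or 3 (0.0913).

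The same direction was seen on the other 2 probe sets of SLC38A2. One read 4.97, 4.78 and 4.69 in SRPIN803, against 3.98, 4.14 and 4.14 in DMSO, a log2 change of 0.72 ± 0.094. The other read 4.86, 4.74 and 4.87 in SRPIN803, against 3.80, 4.02 and 3.89 in DMSO, a log2 change of 0.92 ± 0.083 (limma's adjusted p = 0.00379 over all probe sets). The last one, which was dimmest over the 6 arrays, stayed called with any 1 array left out. All 3 probe sets lay below the array's median level, and 2 of the 3 are marked by the platform as able to bind other transcripts (names ending in _x_at). The name of the remaining probe set ends in _s_at, so SLC38A2 could not be tested when _x_at and _s_at probe sets were left out.

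SLC38A1 encodes SNAT1, the closest paralogue of SNAT2. Its brightest probe set read 11.50, 11.59 and 11.52 in SRPIN803, against 11.59, 11.66 and 11.64 in DMSO. These groups were 0.0033 apart, at a log2 change of -0.092 ± 0.057. Another probe set was at -0.28 ± 0.084 and a dimmer one at -0.73 ± 0.23, both lower without overlap and not called over all probe sets (adjusted p = 0.150 and 0.179 with limma). The dimmer one read 6.79, 5.81 and 6.26 in SRPIN803, with replicate 2 lowest, against 7.26, 6.98 and 6.80 in DMSO, and without SRPIN803 replicate 2 it was at -0.49. The probe sets of SLC38A1 were not called as moving apart (diffSplice adjusted p = 0.248).

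**Figure D3:**
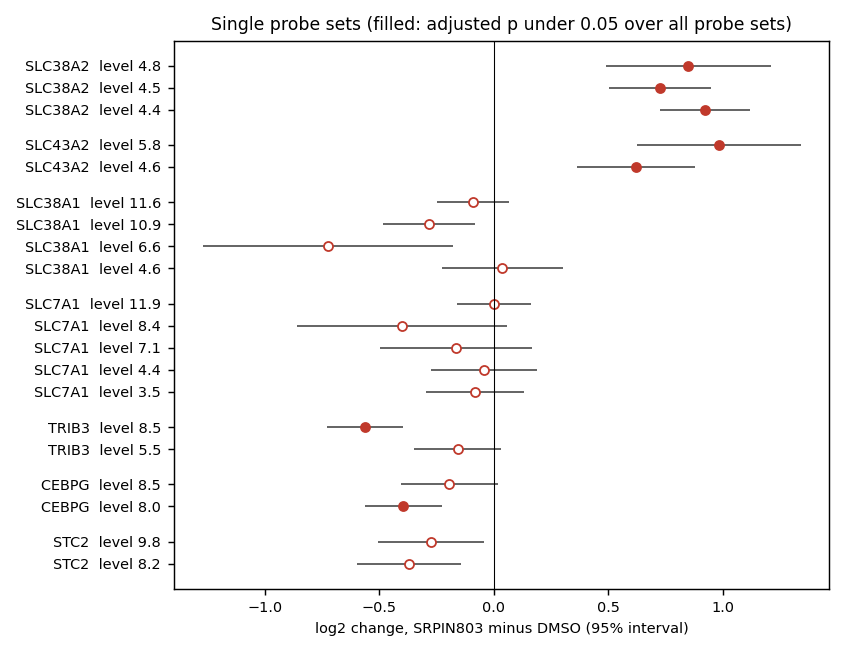
Log2 change (SRPIN803 minus DMSO, x axis) with its 95% interval for each probe set of 7 genes, ordered within a gene from bright to dim by the log2 level printed beside it. Filled points passed limma's test over all probe sets. All 3 probe sets of SLC38A2 and both of SLC43A2 lie to the right of 0, while 3 of 4 of SLC38A1 and both of TRIB3, CEBPG and STC2 lie to the left.

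SLC7A5 encodes LAT1, which exchanges glutamine for large neutral amino acids. It was at 11.11, 11.40 and 11.25 in SRPIN803, against 11.60, 11.59 and 11.69 in DMSO. The groups lay 0.19 apart, and SLC7A5 fell 1.29-fold (95% interval 1.13 to 1.48), a log2 change of -0.37 ± 0.084 with limma's adjusted p = 0.0445. The call held without SRPIN803 replicate 2 (0.0316) and was lost without SRPIN803 replicate 1 (adjusted p = 0.0945 with limma) or 3 (0.115) and without DMSO replicate 1 (0.107), 2 (0.116) or 3 (0.163).

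SLC3A2 encodes the heavy chain CD98 that carries LAT1 to the membrane. It was at 9.26, 9.58 and 9.41 in SRPIN803, against 9.51, 9.44 and 9.57 in DMSO. SRPIN803 replicate 2 was the highest of the 6 arrays, the groups overlapped, and the log2 change was -0.093 ± 0.090 with a 95% interval of -0.30 to 0.12. Whether SLC7A5 and SLC3A2 changed unequally was not tested.

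SLC1A5, which encodes the glutamine carrier ASCT2, was at 4.54, 4.71 and 4.49 in SRPIN803, against 4.82, 5.02 and 4.85 in DMSO. All SRPIN803 arrays were lower, by a log2 change of -0.31 ± 0.084 that was not called (adjusted p = 0.0762 with limma), on a single probe set below the median level. SLC1A4, the related neutral carrier ASCT1, was at -0.045 ± 0.092, and its 5 probe sets lay between -0.062 and 0.10. The glycine carrier gene SLC6A9 was at -0.087 ± 0.083, at a level of 2.85.

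SLC7A1 encodes CAT1, the carrier of arginine and lysine. Its brightest probe set gave a log2 change of 0.0013 ± 0.059, with a 95% interval of -0.14 to 0.14. The 4 other probe sets had values from -0.40 to -0.042, none of them called.

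Over all 69 probe sets of the 33 genes, 7 were called (5 higher and 2 lower), against 2.22% of all 54613 probe sets. They belong to SLC38A2 (3), SLC43A2 (2), TRIB3 (1) and CEBPG (1). SLC7A5 has a single probe set, which passed over all genes and not over all probe sets (adjusted p = 0.0841 with limma).

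Other genes of the route and of amino acid handling were read from lists. Among 19 genes for eIF2 kinases and the eIF2 machinery 0 were called with limma, against 5.84% of all genes. An unadjusted p under 0.05 was found for 3 of the 19, a smaller share than the 19.5% of all genes. Those with the smallest p were EIF2AK2, the kinase PKR that senses double-stranded RNA, at 0.24 ± 0.081 (adjusted p = 0.149), and EIF2B4, a subunit of the eIF2 exchange factor, at -0.14 ± 0.056 (adjusted p = 0.215). The endoplasmic reticulum kinase gene EIF2AK3 was at -0.0013 ± 0.094 and the amino acid sensing kinase gene EIF2AK4 at -0.013 ± 0.056, both named after their values were seen.

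Of 31 other known ATF4 and stress response targets, SLC7A11 alone was called (3.23%, against 5.84% of all genes), and it fell. SLC7A11 encodes the cystine importer xCT, which also responds to NRF2. It was at 9.47, 9.76 and 9.76 in SRPIN803, against 10.15, 10.21 and 10.30 in DMSO. All SRPIN803 arrays were lower than the DMSO arrays, at a log2 change of -0.56 ± 0.092 (limma's adjusted p = 0.0167). It lost the call without DMSO replicate 2 (0.0677) or 3 (0.0769). The median of that list was -0.036, against 0.019 over all genes. In the list 21 of 31 genes lay below 0, against 8677 of all 19775 genes.

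Of 28 other amino acid transporter genes 2 were called, SLC7A11 and SLC6A15 (7.14%, against 5.84% of all genes). SLC6A15, which encodes a neutral amino acid carrier, rose by 0.31 ± 0.059 (limma's adjusted p = 0.0266). Of 28 other amino acid and one-carbon enzyme genes 2 rose and 2 fell (14.3% called, against the same 5.84%). CDO1, the dioxygenase that begins cysteine breakdown, rose by 0.38 ± 0.079, and GCLC, the catalytic subunit for glutathione synthesis, by 0.29 ± 0.059. GCLM, the modifier subunit of the same enzyme, fell, with a log2 change of -0.30 ± 0.059, as did PYCR3, of proline synthesis, at -0.30 ± 0.065. None of these 5 genes stayed called when any 1 array was left out, with limma's adjusted p reaching 0.154.

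Of 29 genes listed for amino acid sensing to mTORC1, the kinase complex that couples nutrients to growth, 6 rose and 0 fell. That is 20.7% called, against 5.84% of all genes, 3.46% higher and 2.37% lower. This list, too, was chosen with earlier results of these data known, so the share is a description. Besides genes of amino acid sensing it holds MTOR, RPTOR and MLST8, of the complex itself, and RHEB, TSC1 and TSC2. The list median was 0.022, with 15 genes above 0 and 14 below. In 12 of the 29 the groups did not overlap, 8 higher and 4 lower. Over all genes 25.6% were without overlap, 15.2% higher and 10.4% lower. Of the 12 genes, 2 higher and 4 lower were not called. TSC1, of the complex that restrains mTORC1, was at 9.23, 9.29 and 9.33 in SRPIN803, against 8.84, 8.94 and 8.92 in DMSO, a log2 change of 0.38 ± 0.062. SESN3, a sestrin, changed by 0.36 ± 0.075, SESN1, another sestrin, by 0.35 ± 0.064 and FLCN, folliculin, which acts on the Rag GTPases, by 0.33 ± 0.074. These are the 4 largest, and the other 2, named like CASTOR1 below after their values were seen, were CASTOR2, a paralogue of the arginine sensor, at 0.28 ± 0.056 and FNIP1, the partner of folliculin, at 0.24 ± 0.055. Adjusted p ran from 0.0154 for TSC1 to 0.0487 for FNIP1 with limma.

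The groups of these 6 genes did not overlap, and SESN2, the sestrin among the 33 genes, was at 0.068 ± 0.071 with overlap. The arginine sensor gene CASTOR1 was at -0.50 ± 0.12, lower without overlap and not called (adjusted p = 0.0620 with limma). Without SRPIN803 replicate 2 the list had 2 genes higher and 1 lower. It had 1 higher and 0 lower without SRPIN803 replicate 1 or without DMSO replicate 2 or 3, and 0 called without SRPIN803 replicate 3 or DMSO replicate 1. CASTOR2, FLCN and FNIP1 lost their calls with any 1 array left out.

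**Figure D4:**
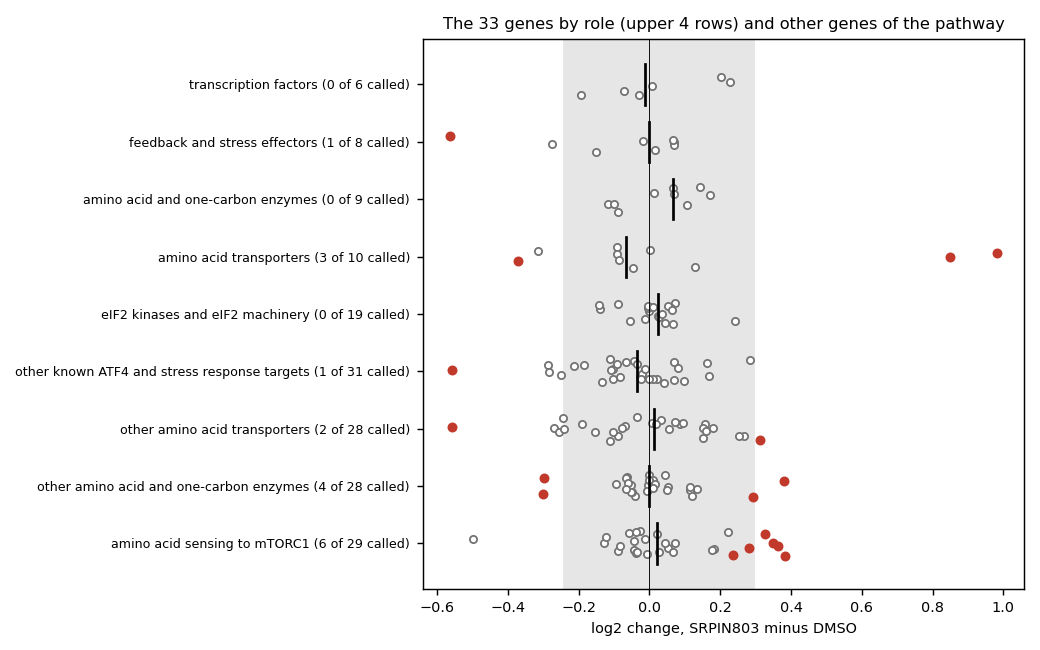
Log2 change (SRPIN803 minus DMSO, x axis) of each gene (points) for the 33 genes by role and for the other lists (y axis). Red points were called at an adjusted p under 0.05, black bars mark list medians, the vertical spread within a row has no meaning, and the grey band runs from the 5th to the 95th percentile of all genes (-0.24 to 0.30). The 3 calls among amino acid transporters lie outside the band. In the mTORC1 row 6 calls sit together above 0, while 14 of its 29 genes lie below 0.

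**Figure D5:**
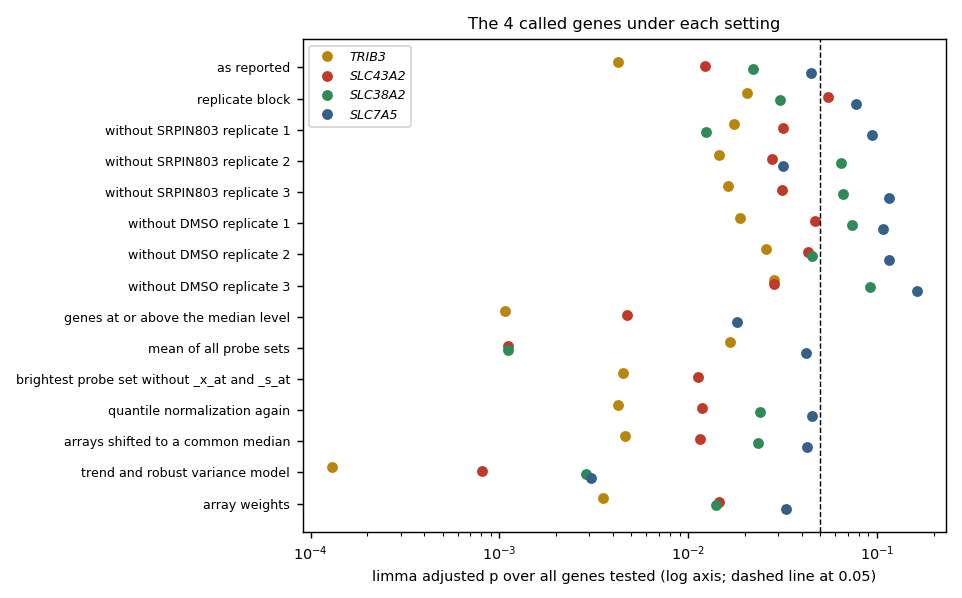
Limma's adjusted p (x axis, log scale) of the 4 called genes as reported and under 14 other settings (y axis), of which 12 tested SLC38A2 and 13 tested SLC7A5. TRIB3 lies left of the dashed 0.05 line throughout, and SLC43A2 crosses it under 1 setting, the replicate block. SLC38A2 and SLC7A5 cross it under several that leave out an array, and SLC7A5 also under the replicate block.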

How the data were processed

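The authors deposited log2 values, 1 per probe set and array, and the submitters' processing notes name RMA, which corrects background, normalizes between arrays and summarises probes. Its software and options were not stated there. The log2 values were used as deposited. Once sorted, values differed between arrays by no more than 0.14, so a change in total RNA per cell would not show. Arrays give no read depth, and 3 arrays per group limit precision. Of 54675 probe sets (62 controls), 41091 named 1 gene, 1801 several, and 11721 are unnamed here; no symbol changed in the reference gene table.

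Tests of SRPIN803 against DMSO were two-sided and used limma 3.58.1 under R 4.3.3, with group as the sole term, empirical Bayes variances and 4 residual degrees of freedom. Groups came from the sample titles. The tests were checked on simulated data. The genes and lists were chosen with earlier results of these data known. Values per array are given for called genes, genes whose groups did not overlap and ATF4, ATF5, DDIT3, ASNS, CHAC1, PPP1R15A and SLC3A2. From other lists up to 4 called genes with the largest change, or the 2 with the smallest p, were named, and others are marked or added where a count rests on them. Probe sets were compared within genes by diffSplice, at or above the median level of 5.26 and without those ending in _x_at. Same-numbered arrays of the groups deviated with correlations of 0.18, -0.06 and 0.11, so numbers were not taken to pair samples. Alternatives are listed in the closing section. Plots used matplotlib 3.10.9 in Python 3.11.15.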

Additional observations from a re-analysis of the deposited data

How the results depend on the processing

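Of the 4 calls, TRIB3 held under all 14 alternatives, SLC43A2 under 13 of 14, SLC38A2 under 8 of the 12 that tested it and SLC7A5 under 7 of 13, each with its direction kept. Leaving out 1 array gave 324 to 687 called genes in all in place of 1154, 1 to 2 of the 33 higher and 1 to 2 lower, 1 to 4 called genes of other lists in place of 12 (the 4 include CASTOR1, not called over all arrays), 1 to 5 called probe sets in place of 7, 0 to 1 genes with probe sets moving apart, and a median log2 change of the 33 genes of -0.025 to 0.016. The replicate numbers were not taken as pairs. With the replicate number as a block 689 genes were called in all, 1 of the 33 higher (SLC38A2) and 1 lower (TRIB3). SLC43A2 (adjusted p = 0.0547 with limma) and SLC7A5 (0.0777) lost their calls. In that fit 3 genes of other lists were called in place of 12, and 2 probe sets in place of 7. Among genes at or above the median level 1905 were called, and with a trend and robust variance model 2036, 4 of the 33 higher. The brightest probe set without _x_at and _s_at ones left 1 higher and 1 lower, with a median of -0.059. SLC38A2 and SLC7A5 have only such probe sets and were not tested there. Without a filter on level, 0 genes had probe sets moving apart. The cause of these shifts was not tested. Of 448 values of single genes under alternatives 403 kept direction and call, 11 lost a call, 6 gained one and 28 changed sign, all in 9 genes that were not called. With 1 array left out, the values of 8 of these genes spanned 0, from -0.015 to 0.030 for ASNS, -0.0072 to 0.14 for GDF15, -0.055 to 0.10 for NUPR1, -0.034 to 0.070 for PPP1R15B, -0.0037 to 0.15 for PSAT1, -0.097 to 0.041 for SLC1A4, -0.025 to 0.032 for SLC7A1 and -0.072 to 0.019 for VLDLR. Where all probe sets of a gene were averaged, the turned values were 0.00045 for ALDH1L2, -0.024 for ASNS, 0.0019 for SLC1A4 and -0.14 for SLC7A1. Without _x_at and _s_at probe sets they were -0.060 for ASNS, -0.058 for GDF15 and -0.40 for SLC7A1. With arrays shifted to a common median they were -0.0030 for NUPR1 and -0.010 for SLC7A1, and with array weights -0.012 for SLC7A1.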
